A study of Pyronema omphalodes CBS 100304 with 6 samples.

Results

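Genes annotated as nutrient transporters and permeases were examined in mycelium of the filamentous fungus *Pyronema confluens* kept in constant darkness. They were taken by the words of their predicted product, namely transporter, permease, plasma membrane ATPase, aquaporin or symporter, and products that also named resistance, a vacuole, a mitochondrion or the nucleus were left out. This gave 193 of 13369 predicted genes, since 17 of the 210 genes matched by the transport words were left out. The product names come from the best match of each predicted protein to a known protein, often from yeast, so that a name stands for similarity and not for a transport assay in *P. confluens*.

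The study asked which transcripts differ between the subjective morning and the subjective evening of the circadian cycle. Vegetative mycelium of 1 strain was sequenced after 36 hr in darkness (DD36, the subjective morning) and after 24 hr in darkness (DD24, the subjective evening), with 3 independent biological replicates named a, b and c at each time. All cultures were shaken at 100 rpm and 25°, had first been kept in light for at least a day, and were of about the same age at harvest. According to the study's methods they were in stationary phase, and the medium is called minimal medium there but WPC in the sample labels. The labels also carry the species name *Pyronema omphalodes*. No genotype differed between the groups, and no treatment other than the light regime is named. Since cultures of about the same age were moved to darkness at different times, the time in light beforehand differed along with the time in darkness. These parts of the regime cannot be told apart here.

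Fungi feed by absorption, and nearly every nutrient enters the hypha through a membrane protein. The plasma membrane ATPase uses ATP to pump protons out of the cell, and many carriers for sugars, amino acids, nitrate, phosphate and metals are symporters that let protons flow back together with their substrate. Members of the ATP-binding cassette (ABC) and major facilitator (MFS) superfamilies also move toxins, lipids and metabolites, often out of the cell.

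The libraries held between 806459 and 1132608 counts, and a gene without a count could hold up to 3 counts by chance of sampling, which equaled 2.55 to 4.73 CPM (counts scaled by the library sum and TMM factor). This floor covers counting error only. The members took 1.77, 2.66 and 2.85% of the counts of DD36 replicates a, b and c, against 1.44, 2.54 and 2.49% of those of DD24 replicates a, b and c. A single model that is no member, *PCON_08583*, took 30.7 to 39.3% of the counts in DD36 and 34.0 to 52.2% in DD24, where DD24 replicate a was the highest. With that model set aside the members held 2.92 to 4.13% in DD36 and 3.01 to 3.85% in DD24. DD24 replicate a also stood apart in its TMM factor, 0.728 against 1.02 to 1.13 in the other 5 libraries. The 20 mycelium markers (chitin synthases, septins, tubulins, actin and the Woronin body protein) were all detected and summed to 7159 to 7927 CPM in DD36 and 7434 to 8563 CPM in DD24. The 7 markers of sexual structures summed to 121 to 156 CPM in DD36 and 124 to 175 CPM in DD24. Most of this came from the NDT80-like *PCON_08807* (mean 91.4 CPM in DD36 and 112 in DD24) and the mating-type gene *PCON_08389* (35.4 and 33.3). None was at 0 in all libraries, but *PCON_04524* and *PCON_08875* had at most 1 count in any library, under the floor.

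Of the 193 members, 109 (56.5%) had enough counts to be tested, compared with 40.9% of all genes. The other 84 stayed at or below 5.84 CPM per kilobase of mRNA model on average. Among these 84, 15 had no count in any library, 31 had between 1 and 10 counts over the 6 libraries and 38 had more. The proteins had a median predicted length of 533 amino acids, against 265 over all genes, and ranged between 170 and 1856. The members were spread over 128 scaffolds of the reference genome v01_2. The models of 9 of them overlapped a neighboring model, and for these and for near-identical copies the counts are uncertain because the handling of strand and of reads with several matches is not given in the sources used here.

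Sorted by substrate, the largest type was 66 genes kept as having no named substrate, followed by 32 sugar and polyol carriers, 22 amino acid and amine carriers and 19 metal carriers. There were 13 vitamin and organic acid carriers, 12 nitrogen carriers, 9 carriers of organelle membranes, 8 ion carriers, 6 peptide carriers, 2 aquaporins and 1 proton pump. The remaining 3 were caught by a word in their name but are known as regulators or as a ribosome assembly factor, and are kept apart here as not carriers. Of the 66, 13 are ABC proteins and 13 MFS proteins by name, 38 are other transporters, and 2 name a substrate outside the types (a bile acid permease and a sphingoid base transporter).

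A small number of genes carried most of the transport transcripts. The levels of the 193 genes summed to 8969 CPM per kilobase on average, and the 10 highest held 64.4% of that sum. Only 15 members exceeded 100 CPM per kilobase, and 5 were among the 133 genes that make up the top 1% of all genes. The median tested member had 19.9 CPM per kilobase, compared with 22.9 for all tested genes.

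**Figure D1:**
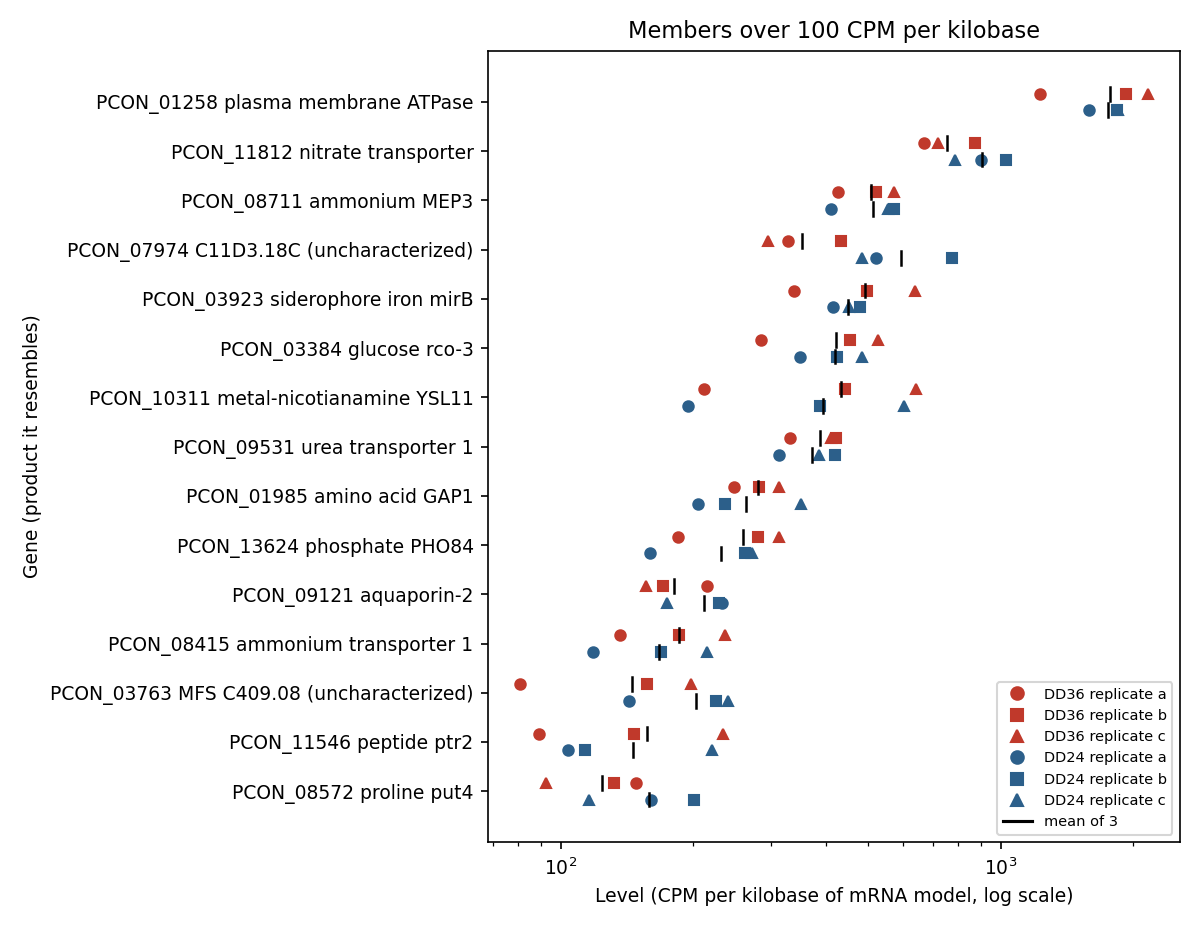
Levels of the 15 members above 100 CPM per kilobase of mRNA model (log axis), with a red symbol for each DD36 library, a blue symbol for each DD24 library and a black bar for the mean of 3. The plasma membrane ATPase lies apart at the top, and the symbols of both times overlap in every row except that of *PCON_07974*.

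The highest member was *PCON_01258*, the plasma membrane ATPase that sets up the proton gradient. It ranked 16 among all genes, and its mean over the 6 libraries of 1764 CPM per kilobase was 2.12 times that of the next member. Its CPM were 4125, 6473 and 7281 in DD36 replicates a, b and c, against 5339.9, 6182 and 6199 in DD24 replicates a, b and c. The DD36 values enclose the DD24 values, and the log2 fold change of DD36 over DD24 was 0.013 with a standard error of 0.22. Its sign turned with the processing, being -0.023 when the replicate letter was fitted as a block.

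Behind the pump the order of levels was less firm. The nitrate transporter *PCON_11812* averaged 755 ± 107 CPM per kilobase in DD36 and 905 ± 119 in DD24 (SD, n = 3 each). The ammonium transporter *PCON_08711*, similar to MEP3, averaged 506 ± 74.0 in DD36 and 512 ± 88.3 in DD24. The siderophore iron transporter *PCON_03923* followed with 491 ± 149 in DD36 and 448 ± 32.1 in DD24. From MEP3 down to the urea transporter *PCON_09531*, the eighth member, neighboring means over the 6 libraries differed by less than their SD, and *PCON_09531* had 388 ± 49.3 CPM per kilobase in DD36 and 373 ± 54.9 in DD24. The amino acid permease *PCON_01985*, the phosphate transporter *PCON_13624* and the aquaporin *PCON_09121* came next at 273, 246 and 196 CPM per kilobase over all 6 libraries.

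Added up by type, the nitrogen carriers held the largest part of the summed CPM per kilobase, 23.6 ± 1.61% in DD36 and 23.8 ± 1.01% in DD24 (SD, n = 3 each), although they are only 12 genes. The proton pump alone held 19.8 ± 2.07% in DD36 and 19.4 ± 0.799% in DD24. This order depended on the correction for length, and in plain counts the pump held 25.9% and the nitrogen carriers 20.6% over all 6 libraries. The metal carriers held 13.0 ± 2.19% in DD36 and 11.6 ± 1.51% in DD24. The 66 genes with no named substrate held 13.96 ± 1.23% in DD36 and 16.5 ± 1.22% in DD24. The 32 sugar and polyol carriers, by contrast, held 7.45 ± 0.0297% in DD36 and 7.16 ± 0.321% in DD24.

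**Figure D2:**
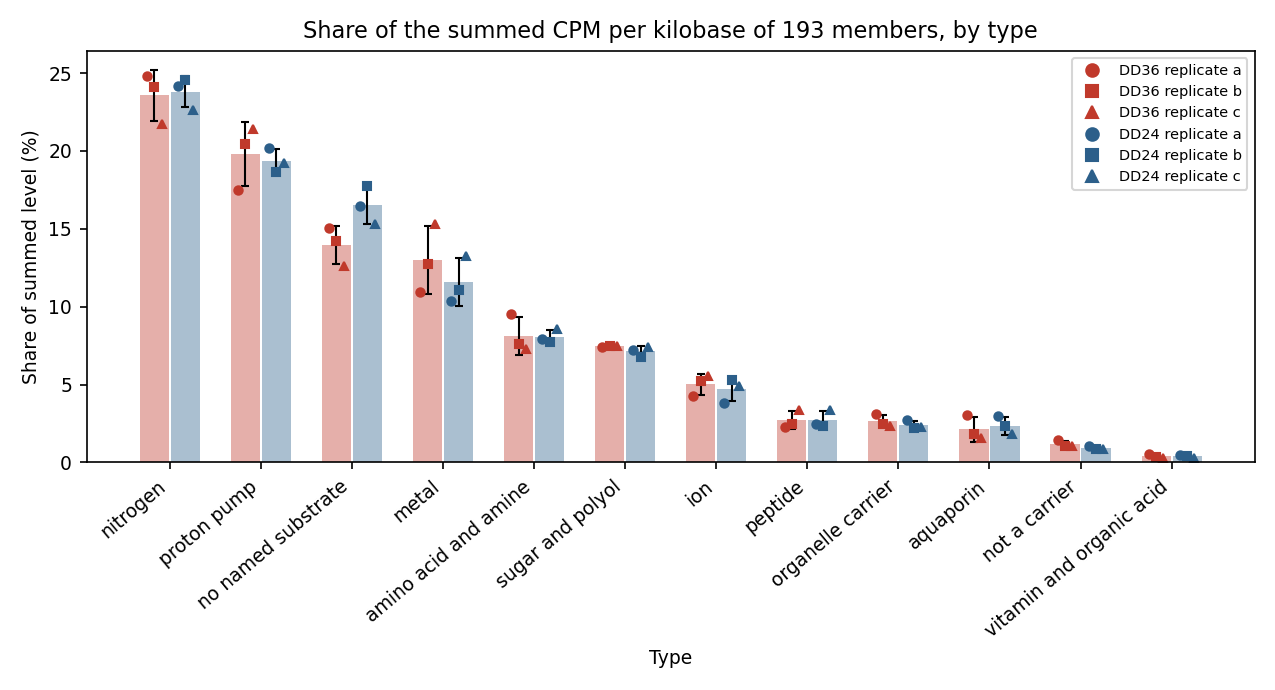
Share of the summed CPM per kilobase of all 193 members held by each type (%), with bars for the mean of 3 libraries, error bars for the SD and a symbol for each library, DD36 in red and DD24 in blue. The genes with no named substrate held 12.6 to 15.1% in DD36 and 15.3 to 17.7% in DD24, and for every other type the values of both times overlap.

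Fitted by edgeR's quasi-likelihood test over 5466 genes, no member passed an adjusted p of 0.05 between DD36 and DD24. The same held for all genes, with 0% called in either direction. At an unadjusted p under 0.05, 4 members were found, or 3.67% of those tested, against 6.99% of all genes. Of these, 3 were higher in DD36, where 2.38% of all genes were, and 1 was lower, where 4.61% of all genes were. The 3 include *PCON_09216*, which is kept apart here as not a carrier. DESeq2 called 0 members higher and 1 lower. It gave an adjusted p to only 486 genes, 16 of these members, and called 0% of the 486 higher and 5.56% lower. With limma-voom 0 members and 0% of all genes were called in either direction. The smallest adjusted p of a member by edgeR was 0.400. The log2 fold changes of the members ranged between -0.82 and 0.65 with a median standard error of 0.26, and 0 members went beyond 1 in either direction.

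The fold changes of the members leaned to positive values. They were above 0 in 69 and below 0 in 40 of the tested members. This was 63.3% above 0 compared with 49.7% of all genes, but the median was only 0.05, against -0.00 over all genes. The levels did not show this lean throughout. The median level of the tested members was 19.47, 23.68 and 20.48 CPM per kilobase in DD36 replicates a, b and c. In DD24 replicates a, b and c it was 18.11, 20.04 and 22.33, so DD36 was lower for letter c. The summed level of all members was 8837 ± 1613 CPM per kilobase in DD36 and 9100 ± 1089 in DD24 (SD, n = 3 each). That sum was lower in DD36 in 2 of 3 pairs. The values of the 3 DD36 libraries lay entirely above those of the 3 DD24 libraries in 4 members, beside 6.02% of all genes, and entirely below in 2, beside 5.87% of all genes. These 6 members are 5.50% of those tested, less than the 11.9% of all genes without overlap. The 6 include *PCON_09216* (higher) and *PCON_08121* (lower), which are kept apart here as not carriers.

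Libraries with the same letter deviated together, so that the letter was also fitted as a block in edgeR. With the block, 0 members were higher and 1 was lower at an adjusted p under 0.05, next to 0.0915% of all genes higher and 1.21% lower. At an unadjusted p under 0.05 it gave 6 members higher and 8 lower, 12.8% of the tested members against 11.6% of all genes.

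**Figure D3:**
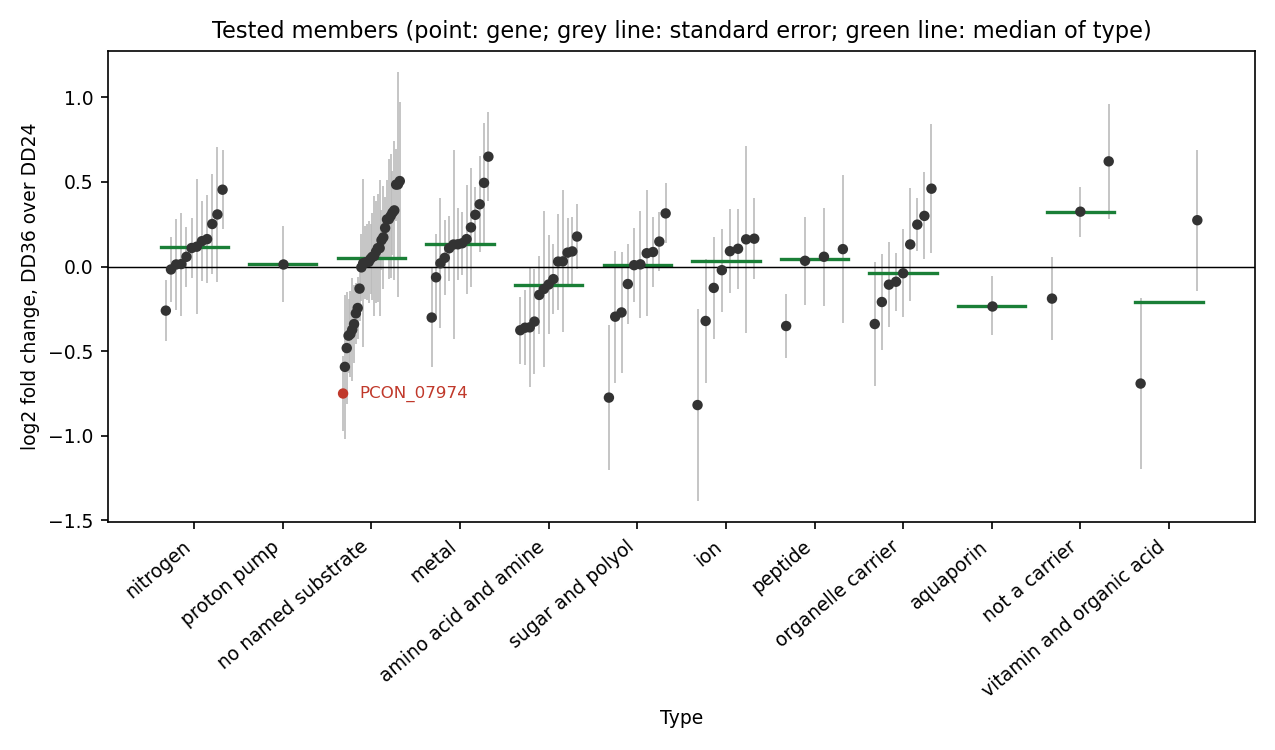
log2 fold change of DD36 over DD24 for each of the 109 tested members, grouped by type, with grey lines for the standard error and a green line for the median of the type. All points lie between -0.82 and 0.65, and *PCON_07974* is marked in red at -0.75.

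The member called with the block was *PCON_07974*, the highest of the genes without a named substrate and the fourth of all members. It resembles the uncharacterized fission yeast transporter C11D3.18C and lies on scaffold 360 at 83612 to 87574 on the minus strand. Its CPM were 1115, 1471 and 1005 in DD36 replicates a, b and c, against 1764, 2635 and 1641 in DD24 replicates a, b and c. All DD36 values lay below all DD24 values, and DD36 was lower in 3 of 3 pairs of the same letter. The fold was 0.594, a log2 fold change of -0.75 with a standard error of 0.22 (edgeR adjusted p = 0.400). With the replicate block the log2 fold change was -0.74 and the adjusted p in edgeR 0.00782. DESeq2 without the block gave -0.76 with an adjusted p of 0.0273 over its 486 genes, and the adjusted p over all alternatives ranged between 7.9e-13 and 0.996. Leaving out replicate b at both times raised the blocked adjusted p in edgeR to 0.516 at a log2 fold change of -0.69, and leaving out DD24 replicate a in the fit without the block gave -0.84. In bulk mycelium, fewer hyphae with the transcript and less transcript per hypha cannot be told apart.

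Its predicted protein of 1101 amino acids is longer than the median member. A second model with the same best match, *PCON_06227*, encodes 493 amino acids and was chosen for description after its values were seen. This gene was far lower and leaned the other way. It had 39.4, 60.4 and 92.7 CPM in DD36 replicates a, b and c, against 15.8, 55.1 and 60.6 CPM in DD24 replicates a, b and c. The ranges overlap, and the log2 fold change was 0.50 with a standard error of 0.47.

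*PCON_07974* made up 28.9 ± 4.99% of the level of its type in DD36 and 39.1 ± 5.75% in DD24 (SD, n = 3 each). Without it, the other 65 genes with no named substrate summed to 729, 901 and 979 CPM per kilobase in DD36 replicates a, b and c, against 773, 975 and 984 in DD24 replicates a, b and c. These ranges overlap, although DD36 was lower in 3 of 3 pairs of the same letter. The share of the type without that gene was 10.3 ± 0.503% in DD36 and 10.7 ± 0.136% in DD24, lower in DD36 in 2 of 3 pairs.

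**Figure D4:**
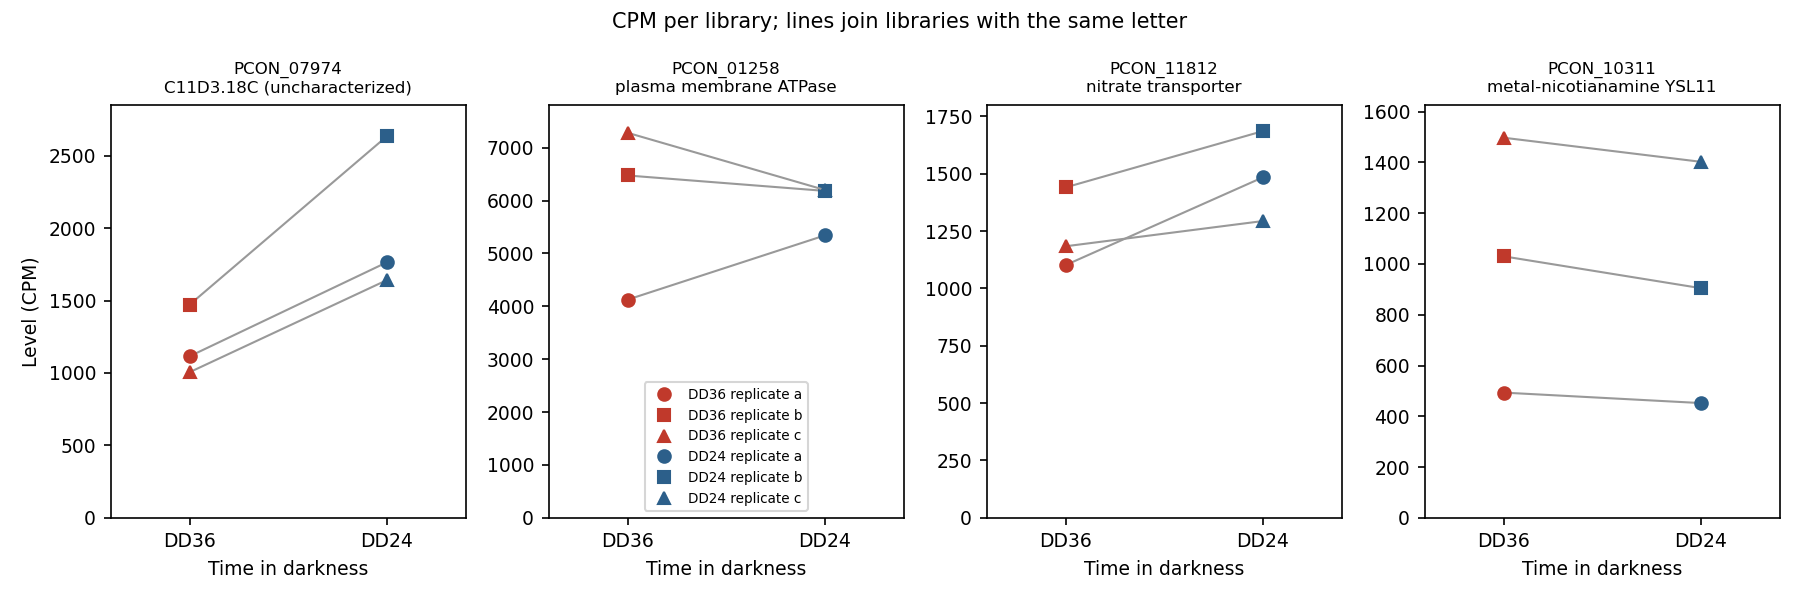
CPM in each library for *PCON_07974*, the plasma membrane ATPase, the nitrate transporter and the YSL11-like metal carrier, with DD36 in red on the left, DD24 in blue on the right and lines between libraries of the same letter. All 3 lines of *PCON_07974* are higher at DD24, while *PCON_10311* differs mainly between the letters, with 493 to 1497 CPM in DD36 and 452 to 1402 CPM in DD24.

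Most genes with no named substrate, 49 of the 66, are called uncharacterized in their product name. Of the 66, 32 were tested, with 21 fold changes above 0, 11 below 0 and a median of 0.05. The MFS protein *PCON_03763* was the second highest of them and had 156, 305 and 384 CPM in DD36 replicates a, b and c, against 277, 437 and 467 CPM in DD24 replicates a, b and c. In each of the 3 pairs DD36 was the lower, yet the letters differed more than the times, and the log2 fold change was -0.48 with a standard error of 0.33 (edgeR adjusted p = 0.844, and 0.0863 with the block). The ABC protein *PCON_02861* leaned the other way with 154, 180.2 and 288 CPM in DD36, against 149.6, 141 and 156 CPM in DD24, each in the order a, b and c. Its log2 fold change was 0.48 with a standard error of 0.21 (edgeR adjusted p = 0.708), and DD36 replicate c alone lay far above the rest. The MFS protein *PCON_13815* had a log2 fold change of -0.41 with a standard error of 0.22.

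All 12 nitrogen carriers were tested, the only type of more than 10 genes for which this was so. Of their fold changes 10 were above 0 and 2 below 0, with a median of 0.11, where 49.7% of all genes were above 0. The summed level of the type did not share this lean, at 2068 ± 283 CPM per kilobase in DD36 and 2165 ± 261 in DD24 (SD, n = 3 each). The 2 genes below 0, *PCON_11812* and *PCON_08711*, had the highest levels of the type. The nitrate transporter *PCON_11812* was the main exception. It had 1101, 1440.0 and 1183 CPM in DD36 replicates a, b and c, against 1484, 1685 and 1293 CPM in DD24 replicates a, b and c. DD36 was lower in 3 of 3 pairs but the ranges overlap, and the log2 fold change was -0.26 with a standard error of 0.18 (edgeR adjusted p = 0.842).

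This gene lies beside the enzymes that reduce what it carries. On scaffold 639 of the reference genome v01_2 the nitrate transporter covers 19983 to 21911 on the minus strand, the nitrate reductase gene *PCON_11813* begins 1577 bases further on at 23489 on the plus strand, and the nitrite reductase gene *PCON_11814* follows after 1540 bases at 28102 on the plus strand. All of them were highly expressed. Nitrate reductase had 1859, 1775 and 1703 CPM in DD36 replicates a, b and c, against 1809.9, 2083 and 1886 CPM in DD24 replicates a, b and c, a log2 fold change of -0.12 with a standard error of 0.17. Nitrite reductase had 2418, 2733 and 2336 CPM in DD36, against 2716, 3337 and 2796 CPM in DD24, a log2 fold change of -0.24 with a standard error of 0.18. The 3 neighbors thus had fold changes below 0, and none passed the test.

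Ammonium carriers of the Mep/Amt family move ammonium, a preferred nitrogen source of many fungi, across the plasma membrane. The most abundant, *PCON_08711*, had 1367, 1673 and 1833 CPM in DD36 replicates a, b and c, against 1318, 1837 and 1775 CPM in DD24 replicates a, b and c. The 2 times overlap throughout, with a log2 fold change of -0.018 and a standard error of 0.19, which became 0.053 when libraries were scaled by total counts. *PCON_08415* was at 234, 319 and 404 CPM in DD36, against 203, 289 and 368 CPM in DD24, while the third gene, *PCON_12699*, stayed between 32.4 and 70.7 CPM in DD36 and between 39.4 and 53.3 CPM in DD24.

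The urea transporter *PCON_09531* had 805, 1025 and 995 CPM in DD36 replicates a, b and c, against 758, 1017 and 938 CPM in DD24 replicates a, b and c. Its log2 fold change of 0.06 had a standard error of 0.18. Carriers of purines, pyrimidines and nucleosides were lower, between 11.3 and 77.4 CPM per kilobase over all libraries. Among them the uracil permease *PCON_10898* had the smallest p of the nitrogen type, with 49.8, 49.3 and 67.0 CPM in DD36, against 33.1, 35.0 and 53.3 CPM in DD24. It was higher in DD36 in 3 of 3 pairs with a log2 fold change of 0.45 and a standard error of 0.23 (edgeR adjusted p = 0.743).

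Of the 19 metal carriers 14 were tested, and 12 fold changes were above 0 and 2 below 0 (median 0.13), where 49.7% of all genes were above 0. Taken within each of the 3 pairs of libraries of the same letter, the median had an SD of 0.14, as large as the median itself. The level of the metal carriers was dominated by a pair of genes. *PCON_03923* resembles mirB of *Aspergillus nidulans*, which imports iron bound to siderophores, and had 909, 1331 and 1705 CPM in DD36 replicates a, b and c, against 1111, 1281 and 1211 CPM in DD24 replicates a, b and c. *PCON_10311* resembles YSL11, from a plant family of carriers for metals bound to nicotianamine, and had 493, 1030.3 and 1497 CPM in DD36, against 452, 905 and 1402 CPM in DD24. It was higher in DD36 in 3 of 3 pairs by a small amount while the letters differed about 3-fold, so that the log2 fold change of 0.13 had a standard error of 0.56.

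The other 17 metal genes were far lower, between 0.407 and 31.6 CPM per kilobase over all libraries. The magnesium carrier *PCON_10648*, similar to NIPA4, had the highest positive log2 fold change of all tested members, with 53.3, 62.1 and 55.1 CPM in DD36, against 53.6, 22.7 and 37.6 CPM in DD24, each in the order a, b and c. Replicate a did not take part in this difference, and the log2 fold change was 0.65 with a standard error of 0.26 (edgeR adjusted p = 0.682). The putative metal ion transporter *PCON_13587* had 102, 104 and 118 CPM in DD36, against 86.6, 95.3 and 78.8 CPM in DD24, without overlap and with a log2 fold change of 0.31 (standard error 0.17).

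The iron permease *PCON_11517*, the yeast homolog of which works with a multicopper oxidase in high-affinity iron uptake, had only 52 counts in all libraries together and was not tested. Its model on scaffold 609 (56911 to 59500, plus strand) overlaps the multicopper oxidase model *PCON_11516* (55122 to 56974, minus strand) by 64 bases. The oxidase gene was also low, at 12.7, 22.1 and 17.4 CPM in DD36, against 22.1, 5.24 and 23.0 CPM in DD24. The copper carrier *PCON_13791* had 28 counts in all.

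The sugar and polyol carriers were many and mostly at few counts. Only 10 of 32 were tested, 3 had no count in any library, and the 22 that were not tested had at most 50 counts each over the 6 libraries. *PCON_03384* alone held 64.3% of the level of the type. It resembles rco-3, a *Neurospora crassa* protein of glucose transport and glucose sensing, and had 543, 868 and 1005 CPM in DD36 replicates a, b and c, against 669, 809 and 925 CPM in DD24 replicates a, b and c. The times overlap, and the log2 fold change was 0.0079 with a standard error of 0.22, which became -0.019 with the block.

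A further gene with the same name, *PCON_09699*, was at 122, 114 and 129 CPM in DD36, against 131, 113 and 87.3 CPM in DD24. The lactose permease-like gene *PCON_11737* was low and variable, with 22.0, 22.1 and 11.02 CPM in DD36, against 37.8, 42.8 and 12.1 CPM in DD24. DD36 was the lower time in 3 of 3 pairs, the log2 fold change was -0.77 with a standard error of 0.43 (edgeR adjusted p = 0.756), and its model overlaps a neighbor.

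Of the 22 amino acid and amine carriers 13 were tested, and 5 fold changes were above 0 and 8 below 0, with a median of -0.11. The broad-range permease *PCON_01985*, similar to yeast GAP1, had 640.4, 733 and 814 CPM in DD36 replicates a, b and c, against 532, 612 and 912 CPM in DD24 replicates a, b and c. Its log2 fold change was 0.09 with a standard error of 0.20. The proline permease *PCON_08572* had 266, 238 and 167 CPM in DD36, against 288, 362 and 208 CPM in DD24. The level was lower at DD36 in 3 of 3 pairs while the ranges overlap, with a log2 fold change of -0.36 and a standard error of 0.22 (edgeR adjusted p = 0.787).

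*PCON_13401* resembles TPO5, a yeast protein of polyamine excretion, and had the smallest p of the type. It was at 51.0, 47.6 and 58.8 CPM in DD36 replicates a, b and c, against 81.9, 68.2 and 55.8 CPM in DD24 replicates a, b and c. Replicate c did not share the lower level in DD36, and the log2 fold change was -0.38 with a standard error of 0.20 (edgeR adjusted p = 0.745).

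Peptide carriers take up short peptides as a source of nitrogen and carbon. *PCON_11546*, similar to ptr2, had 208, 343 and 547 CPM in DD36 replicates a, b and c, against 243, 266 and 516 CPM in DD24 replicates a, b and c. Both times had the highest value in replicate c, and the log2 fold change was 0.10 with a standard error of 0.44. This model overlaps a neighboring model. The oligopeptide carrier *PCON_14208* had 141, 197 and 225 CPM in DD36, against 216, 283 and 219 CPM in DD24, with a log2 fold change of -0.35 and a standard error of 0.19 (edgeR adjusted p = 0.746).

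All 8 ion carriers were tested, with 4 fold changes above 0 and 4 below 0. *PCON_13624*, similar to the yeast high-affinity phosphate transporter PHO84, had 459.8, 701 and 783 CPM in DD36 replicates a, b and c, against 399, 654 and 680.0 CPM in DD24 replicates a, b and c. It was higher in DD36 in 3 of 3 pairs, with a wider gap between letter a and the other letters, at a log2 fold change of 0.16 and a standard error of 0.24. On scaffold 862 it lies 8508 bases from the phosphate transporter gene *PCON_13625*, which was at 39.5 to 51.0 CPM in DD36 and 28.4 to 50.7 CPM in DD24.

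The potassium transporter *PCON_04821* had the most negative fold change of all tested members. It was at 25.5, 116 and 86.3 CPM in DD36 replicates a, b and c, against 117, 197 and 92.1 CPM in DD24 replicates a, b and c. DD36 was lower in 3 of 3 pairs, by far in replicate a and barely in replicate c, so that the log2 fold change of -0.82 had a standard error of 0.57 (edgeR adjusted p = 0.852, and 0.130 with the block).

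Aquaporins are channels for water and small uncharged solutes. *PCON_09121* (aquaporin-2) had 325, 259 and 237 CPM in DD36 replicates a, b and c, against 353, 346 and 264 CPM in DD24 replicates a, b and c. DD36 was lower in 3 of 3 pairs with overlapping ranges, and the log2 fold change was -0.23 with a standard error of 0.17 (edgeR adjusted p = 0.852). The other aquaporin gene, *PCON_05121*, had no count in any library.

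Vitamins and organic acids had the most weakly expressed carriers, with 2 of 13 tested. *PCON_07192*, similar to the yeast thiamine transporter THI72, had 18.5, 26.4 and 6.43 CPM in DD36 replicates a, b and c, against 23.6, 42.0 and 14.5 CPM in DD24 replicates a, b and c. All 3 pairs were lower at DD36, with a log2 fold change of -0.69 and a standard error of 0.50.

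All 9 carriers of internal membranes were tested, with 4 fold changes above 0 and 5 below 0. The highest was *PCON_06789*, a GDP-mannose transporter of the kind that supplies mannose for glycosylation in the Golgi. It had 159.8, 154 and 183 CPM in DD36 replicates a, b and c, against 142, 129 and 148 CPM in DD24 replicates a, b and c. The times did not overlap, and the log2 fold change was 0.25 with a standard error of 0.15 (edgeR adjusted p = 0.792).

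Among the 3 genes that are not carriers, *PCON_09216* resembles ARB1, an ABC protein of ribosome assembly in yeast. It had 178, 178 and 191 CPM in DD36 replicates a, b and c, against 154, 142 and 142 CPM in DD24 replicates a, b and c. The times did not overlap, and the log2 fold change was 0.32 with a standard error of 0.15 (edgeR adjusted p = 0.708). *PCON_05556* and *PCON_08121* resemble Npr2 and Npr3, subunits of a complex that restrains TORC1 signaling when nitrogen is short in yeast. *PCON_08121* had 20.8, 25.5 and 26.6 CPM in DD36, against 26.8, 28.8 and 27.9 CPM in DD24, which do not overlap although the log2 fold change was only -0.19 with a standard error of 0.24. The last gene without overlap was the STL1-like sugar carrier *PCON_13467*, with 78.7, 94.4 and 73.4 CPM in DD36, against 72.5, 62.1 and 65.5 CPM in DD24. The values of *PCON_08121* and *PCON_13467* are given because their ranges did not overlap, which was seen before they were chosen.

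Many members come in families with the same best match. The 13 families of at least 3 gene models held 57 of the 193 members, but only 21 of these could be tested. The largest resembled STL1, a yeast proton symporter for glycerol, with 9 models of which 3 were tested and 2 had no count. Its highest model, *PCON_13467*, averaged 29.3 CPM per kilobase and the second, *PCON_07977*, 19.9, so that the levels were shared. In 9 of the 13 families the highest model held more than 50% of the summed level, and in 4, STL1 included, it did not. Among the 5 high-affinity glucose transporters the highest 2 were nearly level, *PCON_02393* at 9.91 and *PCON_01309* at 9.40 CPM per kilobase. Of the 7 high-affinity methionine permeases *PCON_09425* held 65.6% of the summed level, and of the 4 lactose permeases *PCON_11737* held 70.4%. Of the 3 models similar to the peptide transporter PTR2, *PCON_12518* held 100.0% because the other models had no counts.

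**Figure D5:**
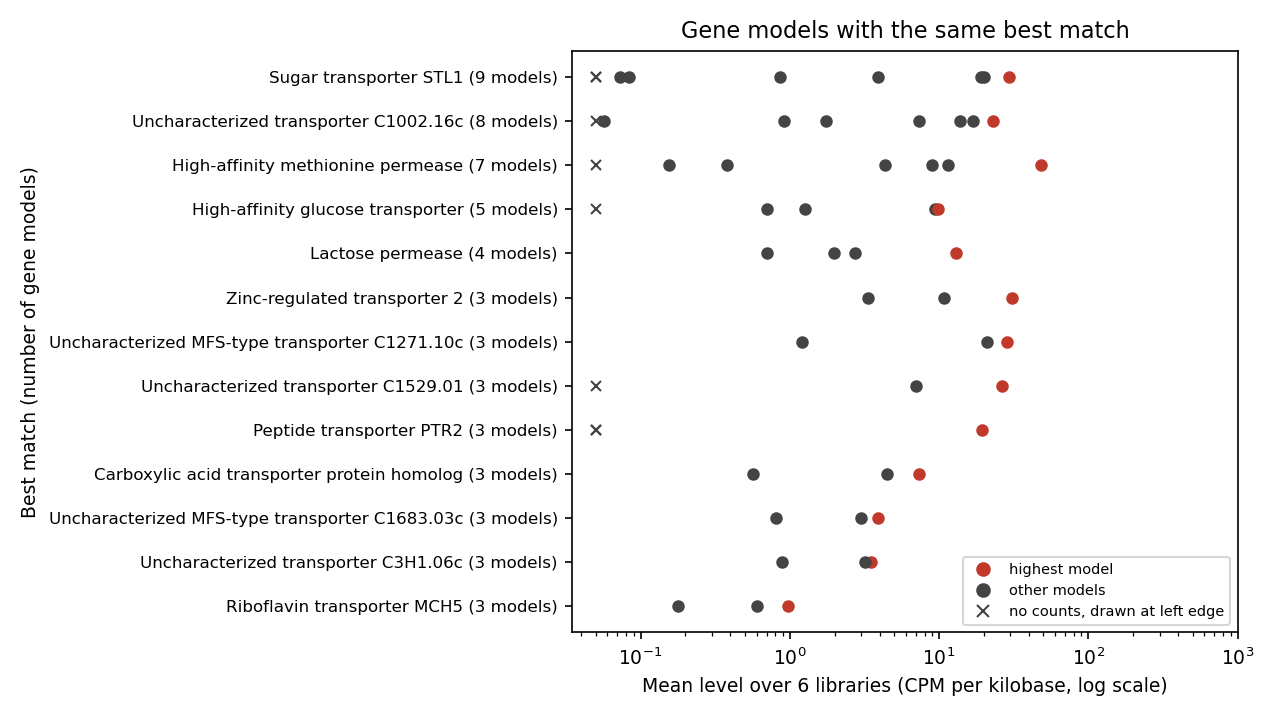
Mean level over the 6 libraries (CPM per kilobase, log axis) of the gene models in each of 13 families with the same best match, the highest model in red, the others in grey and models without counts as crosses at the left edge, where crosses can coincide. Most families hold both a model above 5 CPM per kilobase and models below 2 CPM per kilobase.

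The replicate letters left a clear mark on the members. The same letter was highest at both times in 61 of 109 tested members (56.0%), compared with 41.1% of all genes, and the same letter was lowest at both times in 52.3%, compared with 42.3% of all genes. Letter a was lowest at both times in 37 of the 109 tested members and in 861 of the 5466 tested genes. The range of the 3 letter means had a median of 0.50 on the log2 scale in the members, against 0.38 over all genes. Among the members above 100 CPM per kilobase the widest was *PCON_10311* at 1.62. The sources used here do not say what the cultures of a letter had in common, and the part of the letter in the levels was not tested beyond the block.

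A list of other genes of nutrient uptake and assimilation was taken by words of the product names. It held hexokinases, glutamine and glutamate enzymes, phosphatases, ferric reductases, an iron multicopper oxidase and carbonic anhydrases. Enzymes of nitrate, urea and sulfate use and regulators of the arrestin and 14-3-3 families were also in it. These genes numbered 39, of which 31 were tested. None passed the adjusted threshold in edgeR with or without the block, 2 had an unadjusted p under 0.05 without the block and were higher in DD36 (2.38% of all genes were), 0 were lower (4.61% of all genes were), and 15 fold changes were above 0 and 16 below 0, with a median of -0.00. The ferric reductase *PCON_13789*, which acts ahead of iron uptake, had 12.7, 13.6 and 19.3 CPM in DD36 replicates a, b and c, against 7.88, 9.62 and 7.27 CPM in DD24 replicates a, b and c (edgeR log2 fold change 0.85, standard error 0.37, adjusted p = 0.708). The carbonic anhydrase *PCON_05302* had 16.2, 19.6 and 15.6 CPM in DD36, against 3.15, 13.1 and 6.06 CPM in DD24 (edgeR log2 fold change 1.05, standard error 0.42, adjusted p = 0.669). *PCON_13789* and *PCON_05302* were without overlap, at low levels. Of the 31 tested genes of the list, 2 lay entirely higher in DD36 and 1 entirely lower, beside 6.02% and 5.87% of all genes. The lower one was the glutamate synthase *PCON_13408*, at a high level. It had 943, 940 and 857 CPM in DD36, against 1010, 1036 and 1012 CPM in DD24 (edgeR log2 fold change -0.16, standard error 0.16).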

How the data were processed

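Counts of 6 RNA-seq libraries of *P. confluens* mycelium were analyzed. The authors trimmed reads and aligned these with genome v01_2, and the deposited table holds raw counts per predicted gene, without normalization, beside model lengths. CASAVA 1.8.2 and DESeq are named in the submitters' processing notes (aligner, counting tool and settings: not given in the sources used here). Columns of the authors' DESeq and LOX results (ratios, base means and p-values) were not used.

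All 6 count columns were matched to their samples, and 0 were left out. With edgeR 4.0.16 (R 4.3.3), genes were filtered by filterByExpr (5466 kept), scaled by TMM, fitted by quasi-likelihood and adjusted by Benjamini-Hochberg over all genes (threshold 0.05). Chi-square divided by its degrees of freedom was 3.79 to 16.3 between libraries of a time, so none was a copy of another library of its time. Libraries of different times were not compared in this way. The standard errors given for edgeR were not estimated directly. They were derived as the absolute log2 fold change divided by the square root of the F statistic. CPM were divided by mRNA length in kilobases to compare genes. DESeq2 1.42.0, limma 3.58.1 (voom), other scalings and filters, the replicate block, an adjusted p under 0.1 and leaving out libraries were alternatives, and the block with DESeq2 or with total-count scaling was added after seeing results. Deviations from the time means correlated at 0.223, 0.272 and 0.316 between libraries a, b and c of both times, above the 0.1 set for pairing. The edgeR fit without the block was also run on counts simulated from its own means and spread. It recovered 8, 60, 86 and 94% of the genes changed 1.5-, 2-, 3- and 4-fold, and called 8 unchanged genes. The simulation left out the deviations shared by libraries of a letter, so it does not give the recovery in the real libraries.

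Members, types and lists were chosen with earlier results of these data known. The text names the pump and aquaporins, the 10 highest members, the 5 with the smallest p per direction, members called with or without the block, and the highest and smallest-p member per type; others are values seen first. Substrate types follow words of the product names, and products that the words missed or misplaced were assigned by hand from the description. The carriers of organelle membranes and the genes that are not carriers were set apart by hand in this way. All 193 members were found by locus tag in the RefSeq gene table of assembly Pcon_v1, which adds no symbols; their sequences are not shown.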

Additional observations from a re-analysis of the deposited data

How the results depend on the processing

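Without the replicate block and with all libraries, edgeR called 0 members under RLE scaling, total-count scaling and the filter of 10 counts, and an adjusted p under 0.1 added none. *PCON_07974* was the 1 member called, lower in DD36, without a filter on low counts (log2 fold change -0.74), with the replicate block (-0.74), with the block and RLE scaling (-0.74), with DESeq2 (-0.76), and with the block joined to total-count scaling (-0.66) or to DESeq2 (-0.74). Leaving out libraries moved it between -0.93 and -0.51, and members called then ranged between 0 and 3 in either direction. With the block and without replicate a these were *PCON_02861*, *PCON_10648* and *PCON_12129* (higher) and *PCON_07974*, *PCON_03763* and *PCON_08572* (lower). Of these, *PCON_12129* had too few counts to be among the 109 members tested with all libraries. Without replicate c they were *PCON_06953* (higher) and *PCON_07974*, *PCON_03763* and *PCON_04821* (lower), and without replicate b there were none. Over all genes, calls higher and lower numbered 2 and 51 without a filter, 5 and 66 with the block, 3 and 66 with the block and RLE scaling, 7 and 51 with total-count scaling beside the block, 1 and 50 with the block and DESeq2, 0 and 27 with DESeq2, and 0 and 3 at an adjusted p under 0.1; without single libraries these were 0 higher and 0 to 20 lower (20 without DD24 replicate c), and with the block and 1 letter left out at both times they ranged between 0 and 41 and between 2 and 150, with 0 and 2 without replicate b. Members without overlap numbered 9 higher and 1 lower with total-count scaling (8.26% and 0.917% of those tested, against 9.68% and 3.81% of all genes), 10 and 6 without a filter (5.62% and 3.37%, against 4.66% and 4.74%), and 7 to 16 and 2 to 13 when a library was left out (6.42 to 14.7% and 1.83 to 11.9%, against 9.99 to 14.1% of all genes in either direction). DESeq2 gave an adjusted p to 486 genes, and to 1545 with the block.

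Fold changes near 0 changed sign. *PCON_01258* was -0.023 with the block, -0.028 with the block and RLE scaling, -0.028 with limma-voom and -0.028 with the block and DESeq2, and *PCON_03384* was -0.019, -0.024, -0.028 and -0.026 in the same settings. *PCON_08711* was 0.053 with total-count scaling and 0.061 with the block added. Leaving out libraries moved *PCON_01258* between -0.15 and 0.20, *PCON_01985* between -0.064 and 0.35, *PCON_03384* between -0.18 and 0.21, *PCON_03923* between -0.11 and 0.32, *PCON_08711* between -0.16 and 0.076, *PCON_09531* between -0.058 and 0.15, *PCON_10311* between -0.27 and 0.57, *PCON_11546* between -0.30 and 0.53 and *PCON_13624* between -0.045 and 0.34. Apart from *PCON_07974*, the block changed no call of a member when all libraries were kept. The cause of these shifts was not tested. With 3 libraries a time of 806459 to 1132608 counts, the median standard error of a member was 0.26 on the log2 scale.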

Other observations

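Products set aside because their names hold a vacuole, a mitochondrion, the nucleus or resistance numbered 17, of which 12 were tested. Their fold changes of DD36 over DD24 were above 0 in 7 and below 0 in 5, with a median of 0.14, and 0 passed the adjusted threshold in edgeR with or without the block. At an unadjusted p under 0.05 there were 0 without the block. With the block the vacuolar calcium ion transporter *PCON_08499* had a log2 fold change of 0.70 with a standard error of 0.18 (edgeR adjusted p = 0.0740). It was higher in DD36 in 3 of 3 pairs, with 73.0, 100.3 and 113 CPM in DD36 replicates a, b and c, against 28.4, 68.2 and 78.8 CPM in the DD24 replicates of the same letters, and was picked out after its values were seen.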
